A study of Homo sapiens with 31 samples.

Results

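The miRNAs hsa-miR-20a-5p, hsa-miR-93-5p and hsa-miR-106b-5p are 3 paralogues of hsa-miR-17-5p, with the same seed and different 3′ sequences. Their interactions were all rows of a table of miRNA–target chimeras from Huh-7.5 cells, a human hepatoma line, whose miRNA was 1 of the 3. They made up 1616 of 32712 interactions, or 4.94% (95% Wilson interval 4.71 to 5.18). An interaction is a target region of 75 bases on hg18 that was found joined to a miRNA in at least 1 chimeric read. Here miR-17-5p serves as the nearest relative for comparison, together with all other interactions of the table.

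Chimeras came from immunoprecipitation of Argonaute (AGO) after cross-linking (CLIP), in 31 libraries, and were deposited as 1 pooled table. The CLEAR-CLIP libraries, 12 in 6 conditions of 2 each, were from cells over-expressing the RNA ligase HSPC117 (RNAse A high, RNAse A low or RNAse T1), from cells with HSPC117 siRNA (RNAse A low), and from cells with neither, without or with added T4 RNA ligase (both RNAse A low). All but the last condition had no T4 RNA ligase in the CLEAR-CLIP step. The other 19 libraries were standard CLIP, with 4 of cells given LNA-122, a locked nucleic acid against miR-122, 4 of cells given miravirsen, a clinical miR-122 inhibitor, 4 mock and 7 untreated. The table does not say which library an interaction came from, so treatments could not be compared and no value has a replicate. All intervals below are 95% intervals for counting error only, interactions at 1 gene are not independent of each other, and p-values compare interactions within this table.

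A miRNA guides AGO to RNAs that pair with its bases 2 to 8, the seed, and pairing of its 3′ part adds to some of these contacts. The miR-17 seed family is encoded in several clusters, among them the miR-17-92 cluster on chromosome 13, which holds miR-17 and miR-20a, and the miR-106b-25 cluster on chromosome 7, which holds miR-106b and miR-93. The family is known for promoting proliferation and for repressing regulators of the cell cycle, of apoptosis and of TGF-β signalling, and it is abundant in many tumours, hepatoma included. Because its members share a seed, they are often treated as having the same targets.

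The mature sequences, from RefSeq (GRCh38.p14), are shown because every contrast between the paralogues below is set against them. Capitals mark the seed, bases 2 to 8.
miR-20a-5p: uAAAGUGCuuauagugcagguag
miR-93-5p: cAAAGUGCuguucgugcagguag
miR-106b-5p: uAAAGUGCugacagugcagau
miR-17-5p: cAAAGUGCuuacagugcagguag
They lie at chr13:91351072-91351094 (plus strand, MIR20A), chr7:100093815-100093837 (minus strand, MIR93), chr7:100094043-100094063 (minus strand, MIR106B) and chr13:91350618-91350640 (plus strand, MIR17). The seed was the same in all 4, and an 8mer site, the longest canonical match, reads GCACUUUA in the target. With the base of miR-17-5p first and positions counted from the 5′ end of the miRNA, miR-20a-5p differed by C1U and C12U. For miR-93-5p the differences were U10G, A11U, C12U and A13C, a block of 4 neighbouring bases. For miR-106b-5p they were C1U, U10G and G20A, and it was 21 bases long where the other 3 had 23.

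Among 542 miRNAs in the table, miR-93-5p ranked 14 by number of interactions with 646, miR-20a-5p ranked 19 with 551 and miR-106b-5p ranked 22 with 419, while miR-17-5p ranked 1 with 2480. Read support was thin. The 3 paralogues had 1746 chimeric reads in all, made up of 602 for miR-20a-5p, 709 for miR-93-5p and 435 for miR-106b-5p, and 1539 of the 1616 interactions rested on a single read. The highest read number at 1 interaction was 7 for miR-20a-5p, 9 for miR-93-5p and 4 for miR-106b-5p, against 20 for miR-17-5p. Other members of the family were hardly listed, with 2 interactions for miR-20b-5p and 0 for miR-106a-5p. The latter differs from miR-17-5p at base 1 only, and the search allowed 1 mismatch. Reads of miR-106a-5p and miR-17-5p may thus not be separable, so the 0 does not show that miR-106a-5p was absent. The opposite arms were also rare, at 26 interactions for miR-20a-3p, 19 for miR-93-3p and 19 for miR-106b-3p.

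Interactions with 2 or more reads made up 5.26% of those of miR-20a-5p (3.69 to 7.46), 5.57% of miR-93-5p (4.05 to 7.62) and 2.86% of miR-106b-5p (1.65 to 4.94), against 8.63% of miR-17-5p (7.59 to 9.80). Set against all other interactions by Fisher's exact test, with Benjamini-Hochberg adjustment over the 83 miRNAs with at least 50 interactions, none of the 3 was called (adjusted p = 0.883, 0.669 and 0.183 in that order, with 1, miR-106b-5p, at an unadjusted p under 0.05), where 10.8% of these miRNAs did. Against miR-17-5p directly, all 3 were lower. The difference was −3.37 points for miR-20a-5p (−5.33 to −0.94, adjusted p = 0.0214 over 6 pairs, exact test). It was −3.06 points for miR-93-5p (−4.97 to −0.76, adjusted p = 0.0227, exact test) and −5.77 points for miR-106b-5p (−7.45 to −3.44, adjusted p = 6.8e-05, exact test). A miRNA with more reads can have more repeated ones. In all, miR-17-5p had 2917 chimeric reads, against 602, 709 and 435, and the shares were not adjusted for this.

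A canonical seed match (8mer, 7mer-m8, 7mer-A1, 6mer or offset 6mer) lay in the target region for 44.1% of miR-20a-5p interactions (243 of 551, 40.0 to 48.3), for 45.0% of miR-93-5p (291 of 646, 41.3 to 48.9) and for 43.0% of miR-106b-5p (180 of 419, 38.3 to 47.7). Together the 3 stood at 44.2%, against 29.7% of all other interactions. Each paralogue was higher than the rest of the table (adjusted p = 9.1e-11, 3.6e-14 and 2.4e-07 in the same order, Fisher's exact test), as was miR-17-5p at 42.5% (40.5 to 44.4). Of the 83 miRNAs tested, 22.9% were higher, and the 3 ranked 11, 10 and 13 among them. No pair of the 4 differed, with a smallest adjusted p of 0.873, and the widest interval, for miR-20a-5p minus miR-106b-5p, ran from −5.15 to 7.39 points.

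The 8mer share separated them a little more. It was 9.62% for miR-20a-5p (7.43 to 12.4), 11.9% for miR-93-5p (9.64 to 14.6) and 8.11% for miR-106b-5p (5.86 to 11.1), against 12.5% for miR-17-5p (11.2 to 13.8). Against the rest of the table, miR-93-5p (adjusted p = 1.2e-05) and miR-20a-5p (adjusted p = 0.0322) were higher by Fisher's exact test and miR-106b-5p was not shown to be (adjusted p = 0.367), with 15.7% of the 83 miRNAs higher. Without the places shared by the family, the share was 5.82% for miR-20a-5p (adjusted p = 0.839, below the rest) and 8.83% for miR-93-5p (adjusted p = 0.0894, exact tests), so neither call held without them. This setting also lowered their canonical shares, to 37.1% and 39.1%. It removes places rich in seed matches and thus cannot decide the 8mer shares. No pair of the 4 passed, the nearest being miR-106b-5p minus miR-17-5p at −4.35 points (−6.97 to −1.09, adjusted p = 0.0661, exact test). The kinds of 7mer also varied, as a description. The 7mer-m8 share was 16.2%, 10.2% and 15.3% for miR-20a-5p, miR-93-5p and miR-106b-5p, against 11.2% for miR-17-5p, and the 7mer-A1 share was 4.36%, 9.44% and 5.01%, against 6.09%. Among the 4, miR-93-5p was thus the one with the lowest 7mer-m8 and the highest 7mer-A1 share.

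**Figure D1:**
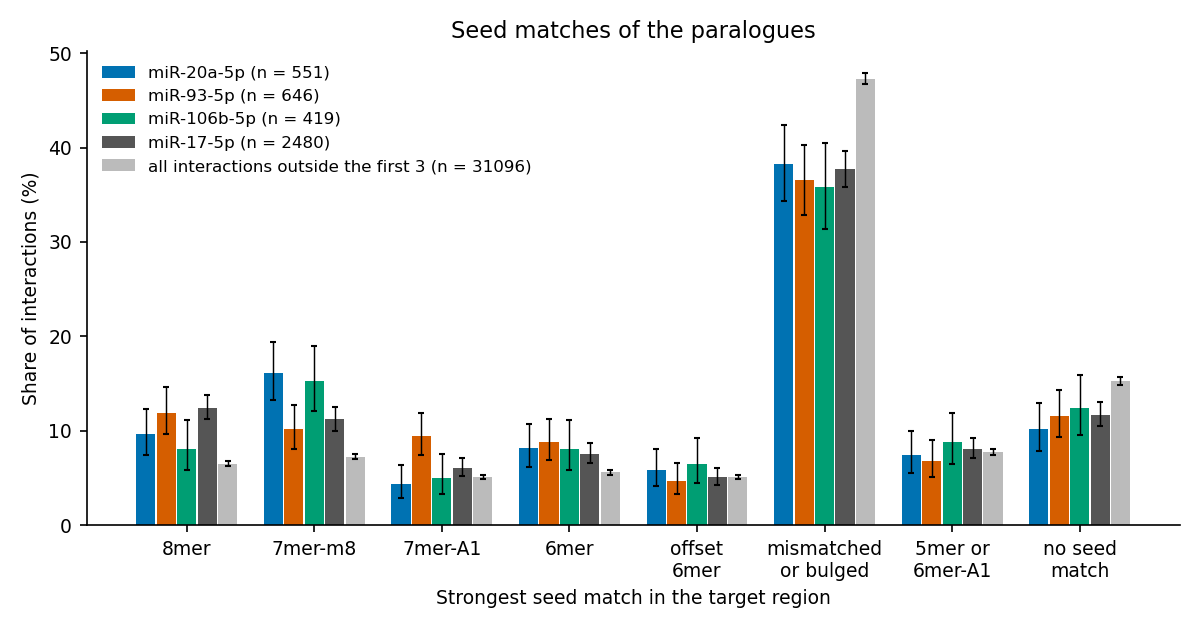
Percent of interactions (y axis) with each kind of seed match for miR-20a-5p, miR-93-5p, miR-106b-5p, miR-17-5p and all other interactions, with 95% Wilson intervals as bars. The 3 paralogues and miR-17-5p lie close together, and all lie above all other interactions for 8mer and 7mer-m8 matches.

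Many interactions without a canonical match had a near match. Mismatched or bulged seeds made up 38.3% of miR-20a-5p, 36.5% of miR-93-5p and 35.8% of miR-106b-5p interactions, against 37.7% of miR-17-5p. Regions with neither a match nor a variant made up 10.2%, 11.6% and 12.4%, against 11.7%. Over the 3 paralogues, 398 interactions had a single mismatch, which fell at positions 2, 3, 4, 5, 6 and 7 of the miRNA in 32, 95, 69, 87, 68 and 47 cases. The most frequent position differed among them, at position 5, a G, for miR-20a-5p (33 of 140, with 29 at position 3), at positions 3, an A, and 6, a U, for miR-93-5p (32 of 161 each, with 31 at position 5) and at position 3 for miR-106b-5p (34 of 97). In 79 of the 398 (19.8%) it was a G:U pair, and these were confined to the G and U bases, with 44 of 87 at position 5, 12 of 68 at position 6 and 23 of 47 at position 7. A bulged miRNA base was listed in 163 interactions, of which 61 were at position 5 and 62 at position 6, and a bulged target base in 36.

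Canonical matches lay near the start of the target region, the side next to the ligated miRNA. They began within the first 37 positions in 79.0% of cases for miR-20a-5p (192 of 243, 73.5 to 83.7), in 84.2% for miR-93-5p (245 of 291, 79.6 to 87.9) and in 84.4% for miR-106b-5p (152 of 180, 78.4 to 89.0), against 84.2% for miR-17-5p. Even placement over the positions a match could take would give 53.6%, 53.6% and 53.5%. All 3 were nearer (adjusted p = 1.0e-15, 4.2e-27 and 1.3e-17, exact binomial test), as were 86.7% of the 83 miRNAs. The median start was position 23 for miR-20a-5p, 24 for miR-93-5p and 21 for miR-106b-5p, against 23 for miR-17-5p.

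By transcript region, introns held most interactions, with 42.3% for miR-20a-5p, 41.8% for miR-93-5p and 43.4% for miR-106b-5p. The 3′-UTR held 14.2% (11.5 to 17.3), 13% (10.6 to 15.8) and 17.9% (14.5 to 21.9), and coding sequence held 10.2%, 11.3% and 8.59%. Of 15 tests of the 3 paralogues against the rest over 5 regions, 1 passed, where 15.7% of all such tests over the 83 miRNAs did. It was the 3′-UTR share of miR-106b-5p, at 17.9% against 11.9% for the rest (adjusted p = 0.0045, Fisher's exact test). Without the places shared by the family it was 16.1% and no longer called (adjusted p = 0.0768, exact test). Among the 30 tests between pairs of the 4 miRNAs 0 passed (0% called, smallest adjusted p = 0.344, 3 at an unadjusted p under 0.05, Fisher's exact test), so the miR-106b-5p share was not shown to differ from those of its relatives. Within the 3′-UTR, canonical matches were more frequent, as a description. They reached 59.0% of miR-20a-5p (46 of 78), 71.4% of miR-93-5p (60 of 84) and 52.0% of miR-106b-5p (39 of 75) interactions there, against 56.1% of miR-17-5p and 40.5% over all miRNAs other than the 3 paralogues.

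The predicted duplexes set the paralogues apart. For each interaction the table gives the miRNA bases paired in a duplex that RNAhybrid predicted in the target region, with G:U pairs counted as paired here. Per the study's methods the prediction was constrained: pairing was forced at the seed where a seed match was present, and inside the seed for mismatched and bulged variants, so seed pairing, the pairing behind it and the energies are not those of a free search. The duplexes were computed with each miRNA's own sequence. Whether the profiles differ through that sequence or through the sites bound was not tested. The map and the listed seed match are separate columns: the map paired the whole match in 640 of 714 canonical interactions of the 3 paralogues (89.6%), and it paired the listed mismatch position in 189 of 398.

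In the middle of the miRNA, position 10 was paired in 47.0% of miR-20a-5p duplexes (42.9 to 51.2), in 68.4% of miR-93-5p (64.7 to 71.9) and in 68.0% of miR-106b-5p (63.4 to 72.3), against 46.2% of miR-17-5p (44.3 to 48.2). Both miRNAs with a G at position 10 were thus some 22 points above miR-17-5p, at 22.2 points for miR-93-5p (18 to 26.2, adjusted p = 8.5e-23) and 21.8 points for miR-106b-5p (16.8 to 26.5, adjusted p = 1.0e-15, Fisher's exact tests). At position 11, where miR-106b-5p has the same base as miR-17-5p, it was also higher, with 55.1% against 39.3% (15.8 points, 10.7 to 20.9, adjusted p = 1.2e-08, exact test). At position 13 the order turned. There miR-93-5p was paired in 48.1% and miR-17-5p in 63.8% (−15.6 points, −19.9 to −11.3, adjusted p = 5.9e-12, exact test), while miR-106b-5p was paired in 70.4%.

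Towards the 3′ end, miR-106b-5p was paired less than its relatives at the same position counted from the 5′ end. Position 20 was paired in 89.5% of miR-20a-5p, 83.1% of miR-93-5p and 43.9% of miR-106b-5p duplexes, against 86.0% of miR-17-5p (−42.1 points for miR-106b-5p minus miR-17-5p, −46.9 to −37.1, adjusted p = 1.5e-70, exact test). These positions lie nearer the end of the shorter miR-106b-5p, and counted from the last base the fall was alike, as a description. The last 3 bases were paired in 73.1%, 41.9% and 15.6% of miR-20a-5p duplexes (positions 21, 22 and 23). In miR-93-5p they were paired in 71.4%, 46.4% and 21.7%, and in miR-106b-5p in 65.2%, 43.9% and 23.9% (positions 19, 20 and 21), against 72.8%, 47.7% and 23.7% in miR-17-5p. The lower pairing of miR-106b-5p at positions 19 to 21 thus cannot be told apart from its length. The 4 neighbouring bases paired most often were 14 to 17 in miR-106b-5p, 16 to 19 in miR-93-5p and 17 to 20 in both miR-20a-5p and miR-17-5p.

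**Figure D2:**
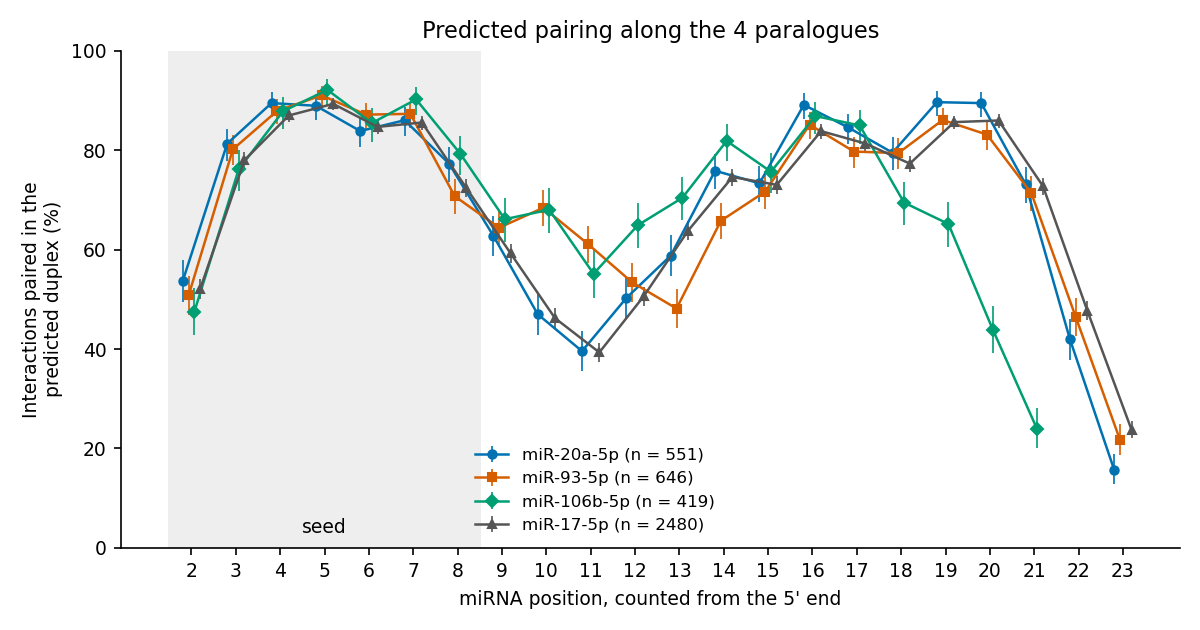
Percent of predicted duplexes (y axis) in which each miRNA position (x axis, from the 5′ end) was paired, for miR-20a-5p, miR-93-5p, miR-106b-5p and miR-17-5p, with 95% Wilson intervals as bars. The lines of miR-20a-5p and miR-17-5p nearly coincide, miR-93-5p and miR-106b-5p lie above them at positions 10 and 11, and the line of miR-106b-5p, which is 21 bases long, falls at earlier positions than the other 3.

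Of 126 tests between pairs of the 4 miRNAs over the positions both have, 44 passed (34.9%, Fisher's exact test, adjusted over the 126). Between miR-20a-5p and miR-17-5p 4 of 22 positions differed, all with the same base, and the largest was −8.10 points at position 23. Position 12, the only one at which their bases differ within the mapped part, was paired in 50.3% of miR-20a-5p and 50.6% of miR-17-5p duplexes. Between miR-93-5p and miR-17-5p 5 of 22 differed, of which 3 were at the 4 positions with different bases, and between miR-106b-5p and miR-17-5p 12 of 20 differed, of which 10 had the same base. The 3 paralogues differed from each other at 7 of 22 positions (miR-20a-5p and miR-93-5p), 8 of 20 (miR-20a-5p and miR-106b-5p) and 8 of 20 (miR-93-5p and miR-106b-5p). In the seed, 4 of the tests passed, and 2 of them were between miR-106b-5p and miR-17-5p. These were position 7, at 90.2% against 85.6% (adjusted p = 0.0344, exact test), and position 8, at 79.2% against 72.4% (adjusted p = 0.0118, exact test). Position 8 was paired in 77.3% of miR-20a-5p, 70.7% of miR-93-5p and 79.2% of miR-106b-5p duplexes, and miR-93-5p was lower than each of the other 2 (adjusted p = 0.0322 and 0.00745, exact tests).

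The number of paired bases behind the seed varied less than their place. Positions 9 to 21 held 9.13 ± 1.97 paired bases for miR-20a-5p, 9.18 ± 1.88 for miR-93-5p and 8.56 ± 2.05 for miR-106b-5p, against 8.94 ± 1.97 for miR-17-5p (SD over interactions). Positions 10 to 13 held 1.96, 2.31 and 2.58 paired bases, against 2.00. Thus miR-106b-5p had the fewest pairs at positions 9 to 21 and the most at positions 10 to 13. Positions 9 to 21 include the last bases of miR-106b-5p but not those of the longer 3, so its lower count cannot be told apart from its length. Duplexes without a canonical seed match had slightly more pairs at 9 to 21, at 9.38 for mismatched or bulged seeds of both miR-20a-5p and miR-93-5p and 8.89 for those of miR-106b-5p, against 8.91, 8.94 and 8.29 for canonical ones, differences smaller than the SD.

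Over positions 2 to 21 the profile of miR-20a-5p was most like that of miR-17-5p (Pearson r = 0.99 across 20 positions, among 76 miRNAs with at least 50 interactions and long enough), then miR-15a-5p (0.87) and miR-93-5p (0.85). The nearest to miR-93-5p were miR-193b-3p (0.87), miR-20a-5p (0.85) and miR-17-5p (0.84). The nearest to miR-106b-5p were miR-483-3p (0.85), miR-151a-5p (0.83) and miR-18a-5p (0.83), all outside the seed family, while miR-93-5p ranked 40 at 0.44, miR-17-5p 42 at 0.44 and miR-20a-5p 47 at 0.42. These correlations are across positions counted from the 5′ end of pooled duplexes, so that the last bases of miR-106b-5p stand against inner bases of longer miRNAs, in which a high seed is shared by most miRNAs, and are given as a description.

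Putting 1 paralogue's bases into another's duplexes left miR-20a-5p and miR-17-5p closest, as a description. Pairs can be lost only at positions where the bases of the 2 miRNAs differ. The counts thus largely restate the sequence differences and are no separate evidence. In both directions of exchange miR-93-5p was farther from miR-17-5p than miR-106b-5p was. The duplexes of miR-20a-5p, however, lost slightly more pairs to miR-106b-5p than to miR-93-5p. Of the 14.7 pairs that a miR-20a-5p duplex had on average at positions 2 to 21, miR-17-5p could keep all but 0.28 (SD 0.45), and in 396 of 551 duplexes it could keep every pair. Exchange with miR-93-5p lost 1.45 pairs (SD 0.99) and with miR-106b-5p 1.55 (SD 0.80). The duplexes of miR-93-5p lost the most, with 1.78 pairs lost to miR-20a-5p, 2.21 to miR-106b-5p and 2.18 to miR-17-5p, and 2 or more lost in 71.2% of them for miR-17-5p. Those of miR-106b-5p lost 0.68 to either miR-20a-5p or miR-17-5p, and 1.26 to miR-93-5p. In the other direction, miR-17-5p duplexes lost 1.49 pairs to miR-93-5p, 1.19 to miR-106b-5p and 0 to miR-20a-5p, since a target G that faces the C at position 12 can pair with the U of C12U as a wobble. The counts hold each duplex's register fixed and consider no new pairs.

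The deposited classes divide all duplexes of the table by k-means on the same pairing maps, so they restate the profiles and are no separate evidence. Class 4 is the one with little seed pairing, 5A and 5B have further pairing in 2 blocks at different places, and 6 has it in more blocks. Of 21 tests of the 3 paralogues against the rest, 17 passed, where 48.7% of all such tests over the 83 miRNAs did. In class 2 lay 37.7% of miR-106b-5p duplexes (33.2 to 42.4) and in class 1 22.7% (18.9 to 26.9), against 17.7% and 13.1% of the rest (adjusted p = 1.1e-20 and 7.8e-07, Fisher's exact test). These classes were low for the other 2, at 12% and 3.63% of miR-20a-5p and 14.2% and 4.49% of miR-93-5p, which were below the rest in both (adjusted p from 1.8e-13 to 0.0289, exact tests).

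In class 3 lay 24.3% of miR-20a-5p, 21.1% of miR-93-5p and 7.64% of miR-106b-5p duplexes. Class 5B held 20.1% of miR-20a-5p, 8.51% of miR-93-5p and 6.44% of miR-106b-5p, against 23.5% of miR-17-5p, and class 6 held 24.3%, 30.7% and 13.1%, against 22.5%. The leading classes were thus 3 and 6 for miR-20a-5p, 6 for miR-93-5p and 2 for miR-106b-5p. Class 4 held 9.62%, 11.0% and 8.59%, none called against the rest (adjusted p = 0.344, 0.938 and 0.142, exact tests). Between pairs of the 4 miRNAs 22 of 42 tests passed (52.4%). None of the 7 did for miR-20a-5p and miR-17-5p, with 0 at an unadjusted p under 0.05 by Fisher's exact test and a smallest adjusted p of 0.101, in class 3 (3.71 points, −0.06 to 7.77). For miR-93-5p and miR-17-5p 4 of 7 passed, for miR-20a-5p and miR-93-5p 3 of 7, and for each pair with miR-106b-5p 5 of 7. Among the 29, 36 and 12 interactions of miR-20a-5p, miR-93-5p and miR-106b-5p with 2 or more reads, 0 class tests passed, and among 3′-UTR interactions alone 2 of 21 against the rest and 12 of 42 between pairs did.

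**Figure D3:**
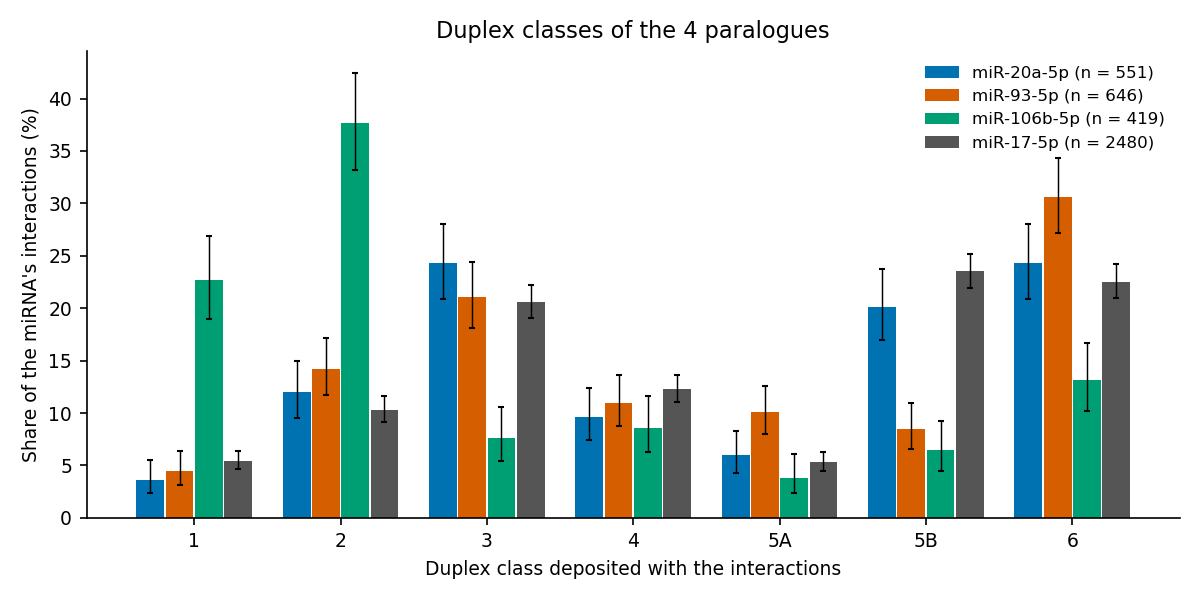
Percent of interactions (y axis) in each of the 7 duplex classes for miR-20a-5p, miR-93-5p, miR-106b-5p and miR-17-5p, with 95% Wilson intervals as error bars. Classes 1 and 2 are high for miR-106b-5p alone, class 5B is high for miR-20a-5p and miR-17-5p, and class 6 is highest for miR-93-5p.

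The minimum free energy (MFE) of the duplexes, in kcal/mol as RNAhybrid gives it, averaged −20.4 ± 4.63 for miR-20a-5p, −20.8 ± 4.52 for miR-93-5p and −19.8 ± 4.69 for miR-106b-5p, against −20.1 ± 4.70 for miR-17-5p (SD over interactions). The spread within each was several times the differences between them. By normal 95% intervals, miR-93-5p duplexes were more stable than those of miR-106b-5p by −1.02 (−1.59 to −0.45) and than those of miR-17-5p by −0.65 (−1.05 to −0.26). Those of miR-20a-5p were more stable than those of miR-106b-5p by −0.63 (−1.23 to −0.04). The shorter miR-106b-5p has fewer bases that can pair. The most stable single duplexes were at MGAT4C for miR-20a-5p (−32.9, intron), at MFSD12 for miR-93-5p (−31.3, coding sequence) and at BPHL for miR-106b-5p (−34.1, intron), each from 1 read.

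The paralogues shared part of their places with miR-17-5p. An overlapping miR-17-5p interaction on the same strand was listed for 85 of 551 miR-20a-5p interactions (15.4%, 12.7 to 18.7), for 94 of 646 of miR-93-5p (14.6%, 12 to 17.5) and for 62 of 419 of miR-106b-5p (14.8%, 11.7 to 18.5). The outside miRNA that overlapped most was miR-320a for miR-20a-5p (2.36%), miR-16-5p for miR-93-5p (2.63%) and miR-19a-3p for miR-106b-5p (1.91%). These are descriptions, and miR-17-5p also had the most interactions of all. Per 1000 interactions of the other miRNA, there were 34.3 overlaps with miR-17-5p for miR-20a-5p, 37.9 for miR-93-5p and 25 for miR-106b-5p. The median for outside miRNAs was 7.25, 7.23 and 4.64. Only the highest outside miRNA, picked from all with at least 50 interactions, is named here. It stood above miR-17-5p in each case, with 45.3 for miR-454-3p, 66.7 for miR-320c and 35.1 for miR-140-3p. These had 265, 60 and 57 interactions, so the last 2 values rest on few overlaps. Among themselves, 7.08% of miR-20a-5p interactions overlapped one of miR-93-5p, 3.27% overlapped one of miR-106b-5p, and 3.25% of miR-93-5p interactions overlapped one of miR-106b-5p. In all, 1543 places held at least 1 of the 3, of which 61 held 2 or more, and 7 of those held all 3. In the processing, a read that fitted several miRNAs went to one of them at random, and the part of such reads in the overlaps was not tested.

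The 4 miRNAs share their seed, so a search for its matches in overlapping regions returns the same match unless there is another one, and the following counts only say how many sites can be compared. Where 2 miRNAs overlapped and both had a canonical match, it lay at the same genomic position in 59 of 60 overlaps of miR-20a-5p with miR-17-5p, 60 of 61 of miR-93-5p and 43 of 43 of miR-106b-5p. Among the 3 it did in 26 of 27 (miR-20a-5p and miR-93-5p), 11 of 11 (miR-20a-5p and miR-106b-5p) and 14 of 14 (miR-93-5p and miR-106b-5p). These same-seed sites give the duplexes of different paralogues on the same RNA. There the predictions differ only in the miRNA sequence and in the edges of the target region. Likeness of class and energy is thus partly built in where the sequences are nearly the same, and is given as a description. The class was the same in 48 of 59 for miR-20a-5p and miR-17-5p (81.4%), in 17 of 60 for miR-93-5p and miR-17-5p (28.3%) and in 16 of 43 for miR-106b-5p and miR-17-5p (37.2%). It was the same in 7 of 26 for miR-20a-5p and miR-93-5p, 1 of 11 for miR-20a-5p and miR-106b-5p and 3 of 14 for miR-93-5p and miR-106b-5p.

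At these sites the energies of miR-20a-5p and miR-17-5p differed by −0.07 ± 1.60 kcal/mol (SD over 59 sites) and those of miR-93-5p and miR-17-5p by −0.12 ± 2.18 (60 sites). For miR-106b-5p minus miR-17-5p it was 0.87 ± 2.88 (43 sites, 25 of them with the less stable duplex for miR-106b-5p). For miR-20a-5p minus miR-106b-5p the difference was −3.31 ± 3.96, with the more stable duplex for miR-20a-5p at 10 of 11 sites, and for miR-93-5p minus miR-106b-5p it was −1.66 ± 2.43, with 11 of 14 in that direction. Most single differences were thus small next to the range from −12.6 to 8.6 that they spanned over all 6 pairs.

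**Figure D4:**
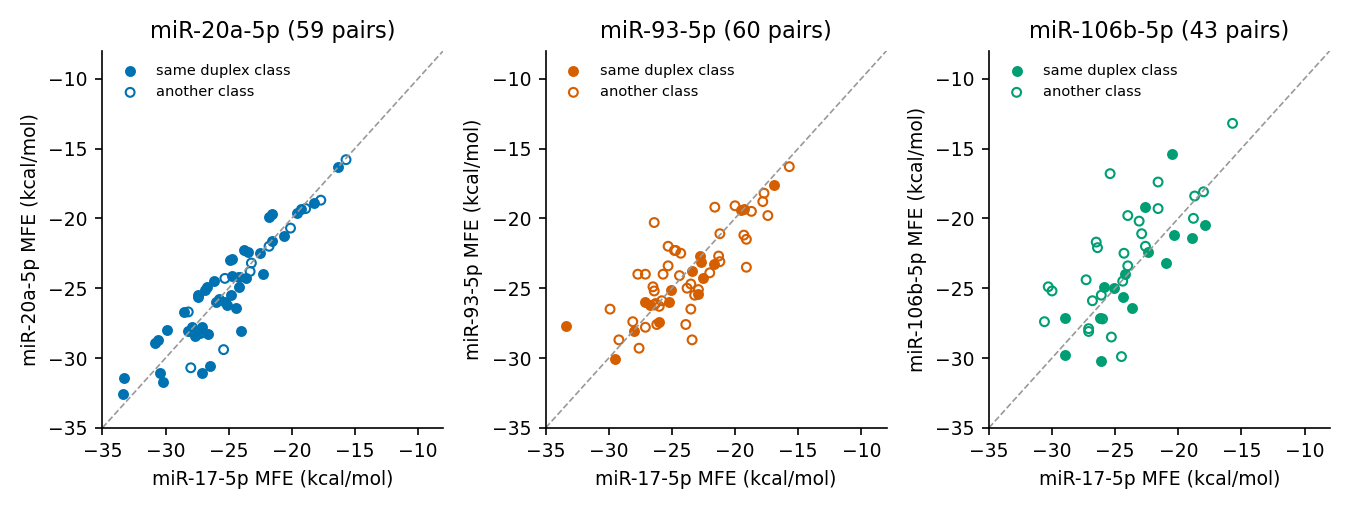
Duplex MFE of each of the 3 paralogues (y axis) against that of miR-17-5p (x axis), in kcal/mol. Each point is 1 site where both had a canonical match at the same genomic position. Filled points have the same duplex class, open points another class, and the dashed line marks equal energies. Points of miR-20a-5p (59 sites) lie closest to the line, and its sequence is also the most like that of miR-17-5p. For miR-106b-5p 25 of 43 points lie above it, which means a less stable duplex than that of miR-17-5p.

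By reads of the 3 paralogues alone, the first shared place in a gene was a 7mer-m8 site in the coding sequence of VTA1, which encodes a cofactor of the endosomal sorting ATPase VPS4. Its region spanned chr6:142566826-142566906 (plus strand, hg18, as listed, since the table does not state whether starts count from 0 or 1). It had 7 reads with miR-20a-5p and 4 with miR-93-5p, against 6 with miR-17-5p, and all 3 duplexes were in class 5B (MFE −24.9, −26.2 and −26.7). No interaction of miR-106b-5p was listed there. Another was an 8mer in an intron of HMGCS1, the cytosolic HMG-CoA synthase of cholesterol synthesis, with 5 reads of miR-20a-5p and 4 of miR-93-5p, against 20 of miR-17-5p, the most of any miR-17-5p interaction. The lines below show the miRNAs at this site (chr5:43327582-43327677, minus strand, hg18), with capitals for bases paired in the predicted duplex.
miR-20a-5p: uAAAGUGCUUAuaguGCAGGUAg
miR-93-5p: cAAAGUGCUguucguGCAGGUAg
miR-17-5p: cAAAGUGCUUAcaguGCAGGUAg
The same bases were paired in miR-20a-5p and miR-17-5p (MFE −28.1 each, class 5A). In miR-93-5p positions 10 and 11, where its bases differ, were open (MFE −27.4, class 3).

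A 7mer-A1 site in the 3′-UTR of CERS2, a ceramide synthase that makes very long chain ceramides and is abundant in liver, held all 4 miRNAs. It had 4 reads of miR-20a-5p, 1 of miR-93-5p and 1 of miR-106b-5p, against 6 of miR-17-5p, over chr1:149205124-149205214 (minus strand, hg18). Capitals again mark paired bases, and the site is shown because the 4 duplexes differ most visibly.
miR-20a-5p: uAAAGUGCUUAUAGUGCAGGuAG
miR-93-5p: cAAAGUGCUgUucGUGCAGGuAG
miR-106b-5p: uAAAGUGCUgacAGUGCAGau
miR-17-5p: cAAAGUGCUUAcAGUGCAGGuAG
In miR-20a-5p 21 bases were paired at an MFE of −30.6, in miR-93-5p 18 at −24.9 and in miR-106b-5p 15 at −21.7, against 20 at −26.5 in miR-17-5p. The U of C12U was paired in miR-20a-5p where the C of miR-17-5p was open.

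A 7mer-m8 site in an exon of CSNK1A1 that the table leaves unclassified was shared by the 3 paralogues without miR-17-5p (chr5:148854578-148854659, minus strand, hg18). CSNK1A1 encodes casein kinase 1α, which phosphorylates β-catenin for its degradation. The site had 2 reads of miR-20a-5p, 1 of miR-93-5p and 3 of miR-106b-5p, with MFE of −23.8, −24.3 and −20.8 and classes 5B, 6 and 2. The paired bases (capitals) show the 3 different patterns.
miR-20a-5p: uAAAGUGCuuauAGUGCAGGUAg
miR-93-5p: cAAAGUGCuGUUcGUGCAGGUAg
miR-106b-5p: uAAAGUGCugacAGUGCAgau
In miR-106b-5p pairing ended at position 18, and in miR-93-5p a central block that was unpaired in the others was paired.

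Other well supported interactions included an intronic region of PROX1, which encodes a homeobox factor of liver and lymphatic development, with 5 reads of miR-20a-5p and 1 of miR-106b-5p, against 7 of miR-17-5p, at a minor 5-base seed match. An intergenic place at chr13:80785806-80785903 (minus strand, hg18) had 6 reads of miR-20a-5p and 1 of miR-93-5p, against 8 of miR-17-5p. For miR-93-5p an 8mer in the coding sequence of CLPTM1 had 4 reads, against 6 of miR-17-5p at the same match. For miR-106b-5p a 7mer-m8 in an intron of CDK16, a cyclin-dependent kinase, had 4, against 4 of miR-17-5p at the same match. A 7mer-m8 in the coding sequence of FBXO22, an F-box subunit of a ubiquitin ligase, had 3 of miR-106b-5p. The most reads of any of the 3 fell on the mitochondrial genome, at chrM:9118-9200 (plus strand, as listed), with 4 of miR-20a-5p and 9 of miR-93-5p and none of miR-17-5p, at a bulged 7mer-A1. The mitochondrial genome held 35 interactions of the 3 paralogues (2.17%, with 11 of miR-20a-5p, 20 of miR-93-5p and 4 of miR-106b-5p), against 2.37% of all other interactions.

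The interactions were spread over 945 genes, of which 806 had only 1. Most interactions had GPC3, an oncofetal heparan sulphate proteoglycan of hepatoma, with 7, all intronic and 6 canonical, of which 1 was of miR-20a-5p, 4 of miR-93-5p and 2 of miR-106b-5p. In GPC3 miR-20a-5p and miR-93-5p shared an 8mer, and miR-93-5p and miR-106b-5p shared a 7mer-A1 with miR-17-5p. NFIA, a nuclear factor I transcription factor, had 5. HMGCS1, CSNK1A1, PLCB1 (phospholipase C β1), THRB (thyroid hormone receptor β), ANXA4 (annexin A4) and CT49 had 4 each. GPC3 had 56 interactions over all miRNAs, HMGCS1 40, PLCB1 69 and THRB 49, so the 3 paralogues made up 12.5%, 10%, 5.80% and 8.16% of them. In PLCB1 a 7mer-A1 was shared by miR-93-5p (4 reads) and miR-20a-5p (1 read) and had none of miR-17-5p, and in THRB a 6mer was shared by the same 2 paralogues (2 reads and 1 read).

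Of the 945 genes, 108 had interactions of 2 or more of the 3 paralogues and 19 of all 3, and 16 of those 19 also had one of miR-17-5p. The 19 included LARP4B, an La-related RNA-binding protein, where the 3 paralogues and miR-17-5p shared a 7mer-A1 in the 3′-UTR with 1, 1 and 1 reads, against 4 of miR-17-5p. An interaction of miR-17-5p was found in 44.1% of the 356 genes of miR-20a-5p, in 38.4% of the 419 of miR-93-5p and in 43.1% of the 297 of miR-106b-5p, where 19.3% of all genes in the table had one. Seen from the 1365 genes of miR-17-5p, these overlaps were 11.5%, 11.8% and 9.38%. Genes with many interactions count more in such overlaps, and no test was made.

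In a list of 40 genes known as targets of the family, 34 had an interaction with some miRNA and 13 had one of the 3 paralogues. Over all 7074 genes with an interaction, 945 had one of the 3 paralogues (13.4%). Genes with more interactions hold one of the 3 more easily. The 34 list genes had 177 interactions and the 7074 genes had 21978, which these gene counts do not adjust for. A canonical match was listed for 13 of the 15 interactions of the 3 paralogues in the list. Over all 1616 it was 44.2%, and over their 237 in 3′-UTRs it was 61.2%. How far the list itself rests on seed matches was not tested. The list was chosen with earlier results of these data known, so these counts are a description, and no test was made. The 15 made up 8.47% of the list's 177 interactions over all miRNAs (5.20 to 13.5), against 5.16% over all genes. Most were in 3′-UTRs. ZNFX1, an antiviral zinc finger helicase, had an 8mer in its 3′-UTR shared by miR-20a-5p (2 reads, MFE −32.6) and miR-93-5p (1 read, −27.7), against 9 reads of miR-17-5p (−33.4). TGFBR2, the type II receptor of TGF-β, had an 8mer in its 3′-UTR with 1 read of miR-93-5p and 1 of miR-17-5p at the same match. STAT3 had an 8mer shared by miR-20a-5p (1 read) and miR-17-5p (3 reads), and CCND1, cyclin D1, had a 7mer-A1 shared by miR-106b-5p and miR-17-5p with 1 read each. ITGB8, an integrin subunit that activates TGF-β, had 2 different sites, an 8mer of miR-106b-5p and a 7mer-A1 of miR-93-5p. JAK1 and VEGFA, a Janus kinase and the vascular growth factor, had a 7mer-m8 each with miR-20a-5p, and TXNIP, a thioredoxin inhibitor, had one with miR-106b-5p at the match also listed for miR-17-5p. ARID4B, with a 7mer-m8 in its coding sequence, had 1 read of miR-106b-5p, with 1 of miR-17-5p at the same match. BCL2L11, which encodes the pro-apoptotic BIM, had 1 read of miR-106b-5p at a bulged seed, as did NCOA3 at a mismatched one.

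In the other lists the 3 paralogues took 5 of 81 interactions at cell cycle genes, 4 of 106 at genes of TGF-β and BMP signalling, 12 of 195 at genes of cholesterol and fatty acid metabolism, 7 of 103 at genes of the miRNA pathway and 0 of 51 at autophagy genes. As shares these were 6.17%, 3.77%, 6.15%, 6.80% and 0%, and every interval included the 5.16% over all genes (the upper bound for autophagy was 7.00%). Among cell cycle genes MKI67, a proliferation marker, had a 7mer-m8 in its coding sequence shared by miR-20a-5p (2 reads) and miR-17-5p (1 read), and MDM2, the ubiquitin ligase of p53, had a 7mer-A1 of miR-93-5p. BAMBI, a decoy receptor of TGF-β, had 3 interactions. Of the fatty acid genes ACSL4, an acyl-CoA synthetase, had 2 of miR-93-5p. Within the miRNA pathway, TNRC6B, a GW182 protein that binds AGO, had an 8mer each of miR-20a-5p and miR-106b-5p. Both matches were also listed for miR-17-5p, with 1 read each. TNRC6A had 2 interactions of miR-106b-5p, of which 1, a 6mer, was at a match also listed for miR-17-5p. AGO1 had a 7mer-m8 of miR-93-5p.

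The cells carried the marks of hepatocytes in the RNAs that were joined. All 14 hepatocyte genes listed had interactions with some miRNA, and 2 of 15 markers of other cell types did. Interactions of the 3 paralogues with hepatocyte genes were 10 of 187 (5.35%), of which 3 were canonical. AFP, the fetal albumin-like protein of hepatoma, had 1 of each paralogue in its coding sequence, and APOB, the LDL apolipoprotein, had 2 of miR-20a-5p and 1 of miR-93-5p.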

How the data were processed

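AGO CLIP and CLEAR-CLIP libraries of Huh-7.5 cells were sequenced by the authors. Per the submitters' notes and the study's methods, reads were handled with CASAVA 1.8.2 and Bowtie (version not given in the sources used here) on hg18, mature miRNAs were sought with up to 1 mismatch, reads fitting several miRNAs went to 1 at random, the rest of each read had to map uniquely, PCR duplicates were collapsed and overlapping chimeras of 1 miRNA were merged. The authors deposited a count of chimeric reads per interaction, pooled over 31 libraries, and an RNAhybrid energy, a deposited score whose unit the file does not name. RNAhybrid left out miRNA base 1. The positions of the seed match in the 75-base region are other values the authors deposited.

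From these, shares were compared by two-sided Fisher's exact tests and seed placement by exact binomial tests (scipy 1.17.1), Benjamini-Hochberg adjusted over all 83 miRNAs with at least 50 interactions or over all pairs of the 4 miRNAs, with a threshold of 0.05. Intervals are Wilson or, for differences, Newcombe intervals. Rows naming 2 regions counted as other. Places were called shared where regions overlapped by at least 1 base on the same strand. The scripts were tested on simulated data. Of 7074 gene IDs, 7049 matched RefSeq, and 426 of 542 miRNAs matched its mature sequences.

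Named were the 3 most similar miRNAs, the 3 interactions with most reads and the 1 with lowest energy per paralogue, the 8 genes with most interactions, up to 10 genes with all 3, up to 12 known targets, up to 4 genes of each other list and up to 6 shared places. CLEAR-CLIP and CLIP libraries cannot be told apart in the pooled table. The miRNAs and the gene lists were chosen with earlier results of these data known.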

Additional observations from a re-analysis of the deposited data

How the results depend on the processing

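No paired analysis was possible because the table pools all libraries and carries no replicate numbers, and for the same reason no library could be left out in turn. Of 95 alternative values for the main results, 78 counted as unchanged, as did 120 of 162 for single classes, regions and the like. For tested shares this meant the same side of the threshold, with no reversal of a called direction. Counts of calls had to stay of similar size. Values without a test, such as energies and shared places, had to lie inside the interval of the main value. The other changes of the main results are given here with some of the single classes and regions, and their cause was not tested beyond the smaller numbers of interactions. With only interactions of 2 or more reads (29, 36 and 12 for miR-20a-5p, miR-93-5p and miR-106b-5p), the canonical share was 58.6% for miR-20a-5p (adjusted p = 0.675, exact test) and 69.4% for miR-93-5p (adjusted p = 0.0631, exact test), the 8mer share of miR-20a-5p was 13.8% and fell below the rest, the 3′-UTR share of miR-106b-5p was 16.7% and fell below the rest, and the class tests against the rest, the class tests between pairs and the region tests gave 0, 0 and 0 calls. With only 3′-UTR interactions, the canonical share of miR-106b-5p was 52.0% (adjusted p = 0.285, exact test), the 8mer share of miR-20a-5p 16.7% (adjusted p = 0.466, exact test), the class calls were 2 against the rest, against 17 over all regions, and 12 between pairs, against 22, and class 3 held 16.0% of miR-106b-5p, above the rest. Without places shared by the family, the 8mer share of miR-20a-5p was 5.82%, below the rest, and of miR-93-5p 8.83% (adjusted p = 0.0894, exact test), and the 3′-UTR share of miR-106b-5p was 16.1% (adjusted p = 0.0768, exact test). As this setting removes places rich in seed matches, it cannot decide the 8mer shares. Class calls were 14, against 17, with class 6 of miR-20a-5p (adjusted p = 0.0985), class 2 of miR-93-5p (0.116) and class 6 of miR-106b-5p (0.0594, exact tests) lost, and class 2 of miR-93-5p was also lost with 1 interaction per miRNA and gene (adjusted p = 0.0729, exact test). The share with 2 or more reads was 1.34% for miR-20a-5p, below the rest, 2.63% for miR-93-5p and 1.44% for miR-106b-5p (adjusted p = 0.00234, 0.108 and 0.0166, exact tests), but this setting itself removes places caught repeatedly, so it is no test of read support. Region calls were 2, against 1, both with 1 interaction per miRNA and gene and without the mitochondrial genome. With canonical matches only, 29 positions differed in pairing between pairs, against 44, of which 28 were among the 44, and none of the 44 changed sign under any of 3 alternatives. Leaving the mitochondrial genome out of the shared places, an alternative chosen after seeing the data, gave shares with miR-17-5p of 15.2%, 13.9% and 14.7% for miR-20a-5p, miR-93-5p and miR-106b-5p.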
